A study of Mus musculus with 2 samples.

Results

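Axl, Mertk, Gas6, Pros1, Timd4, Mfge8, Sirpa and Cd47 take part in the recognition of dying cells and aged red cells, and their transcripts were followed in the macrophages, monocytes, dendritic cells and erythroid cells of the mouse spleen. They were taken by gene symbol from the count matrices, where all 8 symbols were found among 26124 genes. After red cell lysis, spleen cells were enriched on beads against F4/80, a macrophage surface protein, and sequenced as 2 droplet libraries, each from 1 untreated mouse of 12 to 16 weeks. The sickle cell disease (SCD) mouse was Hba-/-, Hbb-/- and carried Tg(HBA-HBBs)41Paz, a transgene that holds human globin genes including sickle β-globin. The control mouse, which the labels call wild-type, was Hba-/-, Hbb+/- and hemizygous for the same transgene, so that both mice carried the transgene and the α-globin deletion. With 1 mouse per condition no test was possible, and every interval below is a 95% interval that covers counting error only, not the spread between mice.

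Dying cells expose phosphatidylserine on their surface. Soluble bridging proteins such as Gas6, protein S (Pros1) and Mfge8 bind it and tether the dying cell to a phagocyte. Gas6 acts through the receptor tyrosine kinases Axl and Mertk, protein S through Mertk and Mfge8 through integrins. Tim-4 (Timd4) binds phosphatidylserine directly. Cd47 on live cells, red cells among them, engages Sirpa on macrophages as a do-not-eat-me signal, and red pulp macrophages of the spleen are the cells that clear aged red cells from the blood.

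The β-globin genes went against the labels. Levels are given as counts of unique molecular identifiers (UMIs, each tagging 1 captured RNA molecule) per 1000000 UMIs of the same cells (CPM). Erythroid-like cells of the library labelled as SCD, whose mouse should lack mouse β-globin, had 67431 CPM of Hbb-bs, and those of the control library had 169.5 CPM. Hbb-bt differed the same way, with 20827 and 285 CPM. Hba-a1 was high in both, at 35535 and 33042 CPM, although both genotypes are given as Hba-/-. The Y-linked gene Ddx3y was at 185 CPM over all kept cells of the library labelled SCD and at 176 CPM over those of the library labelled wild-type, so it did not tell the libraries apart. The libraries are therefore named by their labels, as WT-labelled and SCD-labelled, and every direction given below rests on labels that these genes contradict.

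The WT-labelled library held 145953464 UMIs in 24144 barcodes and the SCD-labelled library 73986356 in 15442, of which 19418 and 12279 barcodes were kept as cells. The libraries shared 107 barcodes. Cells were clustered together without the 8 genes, and clusters were named from marker genes. Red pulp macrophage-like (RPM-like) cells numbered 4703 in the WT-labelled and 1661 in the SCD-labelled library. All 12 of their 12 markers were found, among them the transcription factor Spic and the adhesion molecule Vcam1. Erythroblastic island-like (EBI-like) clusters, with macrophage and erythroid markers together, held 5138 and 751 cells, and erythroid-like clusters 2619 and 305. Monocyte-like clusters held 2091 and 2896 cells and dendritic cell-like (DC-like) clusters 2800 and 2385. Cluster 18 (478 and 1898 cells, 0.379% called doublets) also held dendritic cell markers. It stayed unnamed because a progenitor marker was among its leading genes, and it is not counted as DC-like. RPM-like cells of the 2 libraries lay in different clusters, almost all WT-labelled ones in clusters 2 and 3 and almost all SCD-labelled ones in cluster 21, so a difference between these clusters and a difference between the libraries cannot be told apart. The same held for EBI-like cells (clusters 6, 12, 15 and 19 against cluster 16), and mostly for Ly6c-high monocyte-like cells, which lay in clusters 4 and 5 in one library and in cluster 10 in the other. Ly6c-low monocyte-like cells (cluster 9), DC-like cells and erythroid-like cells shared clusters between the libraries. Free RNA in droplets was read from 530 and 1724 B lymphocytes of 1 cluster, which were taken to lack all of these genes but Cd47.

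**Figure D1:**
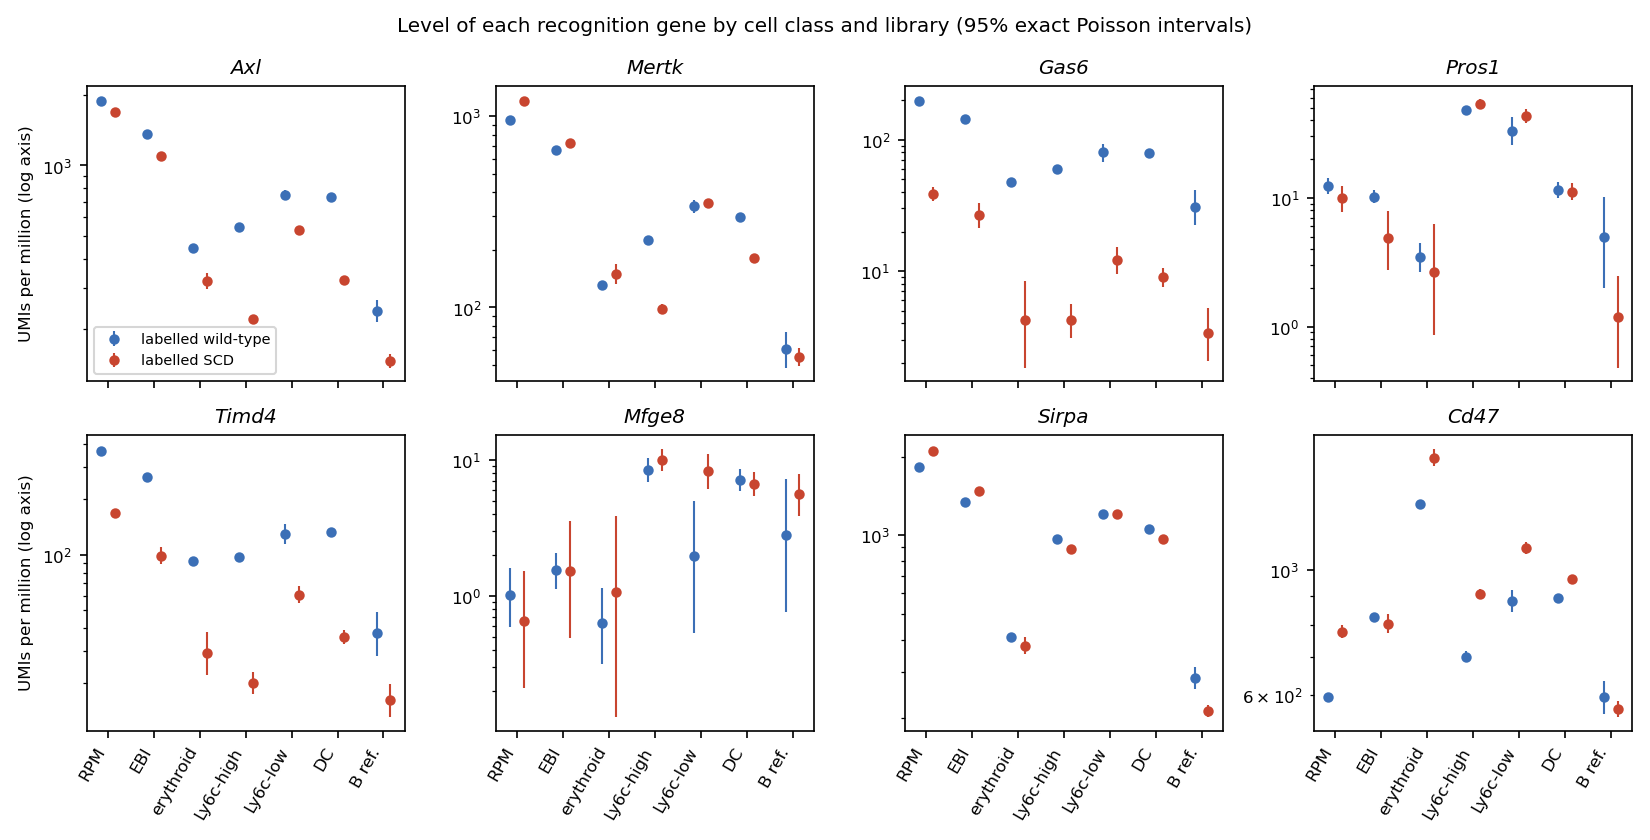
CPM of each of the 8 genes (log axis, each panel with its own range) in 6 cell classes and in the B lymphocyte reference (B ref.), for the WT-labelled library (blue) and the SCD-labelled library (red), as points with 95% exact Poisson intervals from summed UMIs. Gas6 and Timd4 lie lower in the SCD-labelled library in every class shown, Sirpa and Cd47 lie close together in both libraries, and Pros1 is highest in the monocyte-like classes.

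Axl and Mertk, receptors for Gas6, were both at their highest level in RPM-like cells and differed little between the libraries there. Axl was at 1894 CPM (1874 to 1915) in the WT-labelled library and at 1696 CPM (1667 to 1726) in the SCD-labelled library, a log2 ratio of -0.16 (-0.19 to -0.13). Mertk was at 951 CPM (936 to 966) and 1198 CPM (1174 to 1223), a log2 ratio of 0.33 (0.30 to 0.37). So, with all RPM-like cells of a library pooled, Axl was slightly lower and Mertk slightly higher in the SCD-labelled library, neither past 2-fold. The median log2 ratio over the 10003 genes that reached 100 UMIs was 0.20, so Mertk was close to it and Axl below it. Tyro3, the remaining receptor of this family, had 0 UMIs in RPM-like cells of both libraries. A count of 0 allows up to 3 UMIs, or 0.178 CPM in the WT-labelled library and 0.390 CPM in the SCD-labelled library.

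Mertk differed between the RPM-like clusters of a single library. In the WT-labelled library it was at 1334 CPM (1310 to 1359) in cluster 2 and at 561 CPM (545 to 578) in cluster 3, and in cluster 21 of the SCD-labelled library it was at 1200.0 CPM (1176 to 1225). Axl did not show this, with 1913, 1877 and 1702 CPM in the same 3 clusters. Cluster 3 was led by Marco, a scavenger receptor also found on marginal zone macrophages, and by Cd5l. The clusters also differed in depth, with medians of 7057 UMIs per cell in cluster 2 and 1653 in cluster 3. For Mertk, cluster 21 was thus below cluster 2 and above cluster 3. Over 12 alternatives the Mertk log2 ratio in RPM-like cells ran from 0.26 to 0.68. Each alternative pooled all RPM-like cells of a library, so the sign does not hold against each WT-labelled cluster.

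The share of cells with a UMI was lower for Axl and higher for Mertk in the SCD-labelled library. After each cell was thinned to 1000 UMIs, which left out 683 WT-labelled cells and 150 SCD-labelled ones, 82.1% (80.9 to 83.3) of RPM-like WT-labelled cells and 77.7% (75.5 to 79.8) of SCD-labelled ones had a UMI of Axl. For Mertk the shares were 46.8% (45.2 to 48.3) and 64.1% (61.6 to 66.5). B lymphocytes had them in 18.3% and 12.7% of cells for Axl and in 5.71% and 5.10% for Mertk, at median depths of 2211 and 2894.5 UMIs against 2138 and 4091 in RPM-like cells. Without thinning, the Mertk shares in RPM-like cells were 63.8% and 86.6% and the Axl shares 91.8% and 91.6%. Both receptors were found in the same cell in 39.0% (37.4 to 40.5) of RPM-like WT-labelled cells and in 50.8% (48.2 to 53.3) of SCD-labelled ones. Cells with Axl alone made up 43.2% and 26.9%, and cells with Mertk alone 7.84% and 13.3%. A cell without a UMI at this depth may still express the gene.

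**Figure D2:**
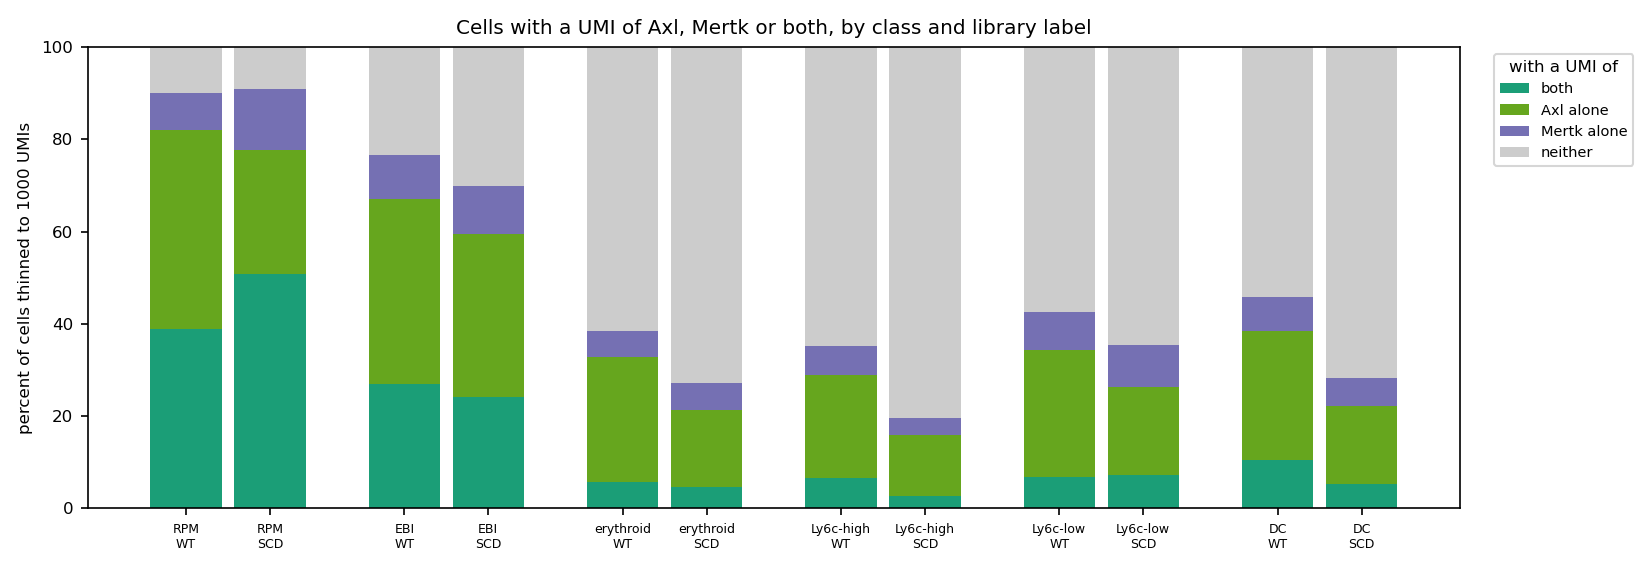
Percent of cells, each thinned to 1000 UMIs, with a UMI of Axl and Mertk together, of Axl alone, of Mertk alone or of neither, stacked to 100% for each of 6 cell classes in the WT-labelled library (WT) and the SCD-labelled library. In RPM-like cells the share with both is 39.0% and 50.8%, and it is at most 10.5% in the erythroid-like, monocyte-like and DC-like bars.

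Gas6, the ligand of both receptors, differed most of the 8 genes. RPM-like cells had 196 CPM (189 to 203, 3307 UMIs) in the WT-labelled library and 38.7 CPM (34.4 to 43.4, 298 UMIs) in the SCD-labelled library. The WT-labelled level was thus 5.06 times the SCD-labelled one, with a log2 ratio of -2.34 (-2.52 to -2.17). From the lowest upward it was ratio 107 of the 9999 that could be computed, and that of Timd4 was 352. Within the WT-labelled library, the level was even, at 198 CPM in cluster 2 and 195 CPM in cluster 3. Of RPM-like cells thinned to 1000 UMIs, 17.6% (16.4 to 18.8) and 4.17% (3.22 to 5.30) had a UMI of Gas6, against 1.14% and 0.586% of the B lymphocytes. Unthinned, the shares in RPM-like cells were 39.7% and 13.7%.

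Timd4, the receptor that binds phosphatidylserine itself, was also lower in the SCD-labelled library. In RPM-like cells it was at 368 CPM (359 to 377) and 169 CPM (160 to 178), a log2 ratio of -1.13 (-1.21 to -1.04), and the 2 WT-labelled RPM-like clusters were close to each other, at 353 and 384 CPM. The thinned shares of cells with a UMI were 30.7% (29.3 to 32.1) and 15.8% (13.9 to 17.7), against 3.43% and 1.35% in B lymphocytes, and without thinning they were 55.3% and 43.8%. Of WT-labelled RPM-like cells with a UMI of Timd4, 47.4% (44.6 to 50.2) also had one of Mertk, and of those without Timd4 46.5% (44.7 to 48.4), so detection of Mertk did not differ with Timd4 beyond counting error.

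Gas6 and Timd4 were thus the 2 of 7 genes reaching 100 UMIs in RPM-like cells that were past 2-fold, both lower in the SCD-labelled library, and none was past 2-fold higher. Of all 10003 genes with that many UMIs there, 4.19% were past 2-fold lower and 9.03% past 2-fold higher. The median log2 ratio of the 7 was -0.16, against 0.20 for all genes. Several markers moved with these genes and others against them. Summed over the list of 3 marginal zone macrophage markers, all 3 of which had UMIs in RPM-like cells of both libraries, RPM-like cells had 1295 CPM in the WT-labelled library and 129 CPM in the SCD-labelled library, most of it from Marco at 1230.5 and 93.9 CPM. The marginal zone marker Cd209b went the other way, at 0.474 and 3.51 CPM, from 35 UMIs in both libraries together. Among the 12 red pulp markers Cd5l was at 3101 and 549.8 CPM. The other 11 were within 2-fold, Fcna (2336 and 1368 CPM) having the next lowest ratio. Itgad (481 and 952 CPM), Cd163 (148 and 276 CPM) and Spic (1027 and 1676 CPM) had the highest ratios of the list. The 12 red pulp markers summed to 30783 and 28757 CPM. The 12 detected erythroid markers summed to 595 and 158 CPM in RPM-like cells, and the 9 neutrophil markers to 123 and 6.88 CPM, with 1 of them at 0 in the SCD-labelled library. In RPM-like cells without a UMI of a marginal zone marker (1064 and 1189 cells), the log2 ratio was -2.12 for Gas6 and -1.13 for Timd4. In those with such a UMI (3639 and 472 cells) it was -2.41 for Gas6 and -0.92 for Timd4, the latter short of 2-fold. B lymphocytes had 229.5 and 28.2 CPM of these markers, so such a UMI can come from free RNA. It is also more likely in a cell with more UMIs. The split therefore does not separate marginal zone macrophages from other RPM-like cells. The part of the markers in the result was not tested.

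Because both genes were lower in the same cells, the RefSeq sequence of the 250 bases before the start of Timd4 and of Gas6 (build GRCm38.p6, 5′ to 3′ on the gene's strand) is shown. Timd4 lies at chr11:46810549-46810798 on the plus strand and Gas6 at chr8:13494536-13494785 on the minus strand. Capitals mark matches on either strand to 4 motifs: TGCTGAC, a site of MAF factors, GAGGAAG, a site of ETS factors such as Spic, TGACNNNGC, the core of the antioxidant response element, and AGATAA, which factors of the GATA family bind.
Timd4: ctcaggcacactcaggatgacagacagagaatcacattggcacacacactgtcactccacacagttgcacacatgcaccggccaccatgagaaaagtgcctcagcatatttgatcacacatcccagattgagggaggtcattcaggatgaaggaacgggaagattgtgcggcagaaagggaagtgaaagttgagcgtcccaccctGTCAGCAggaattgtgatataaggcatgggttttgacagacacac
Gas6: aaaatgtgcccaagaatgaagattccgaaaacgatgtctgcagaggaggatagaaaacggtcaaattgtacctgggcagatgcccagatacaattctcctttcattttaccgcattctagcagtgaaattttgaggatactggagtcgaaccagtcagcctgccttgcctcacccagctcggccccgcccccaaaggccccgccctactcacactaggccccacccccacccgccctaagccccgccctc
The Timd4 window held 1 match, to TGCTGAC on the strand opposite to the gene, 45 to 39 bases before the start, and the Gas6 window held none of the 4. Of 32851 RefSeq windows of the same length, 3.81% held TGCTGAC, 10.6% GAGGAAG, 10.2% TGACNNNGC and 9.99% AGATAA, so a match is common, and it does not show that a factor binds there. Of the other genes with a window, only Axl held a match (GAGGAAG).

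**Figure D3:**
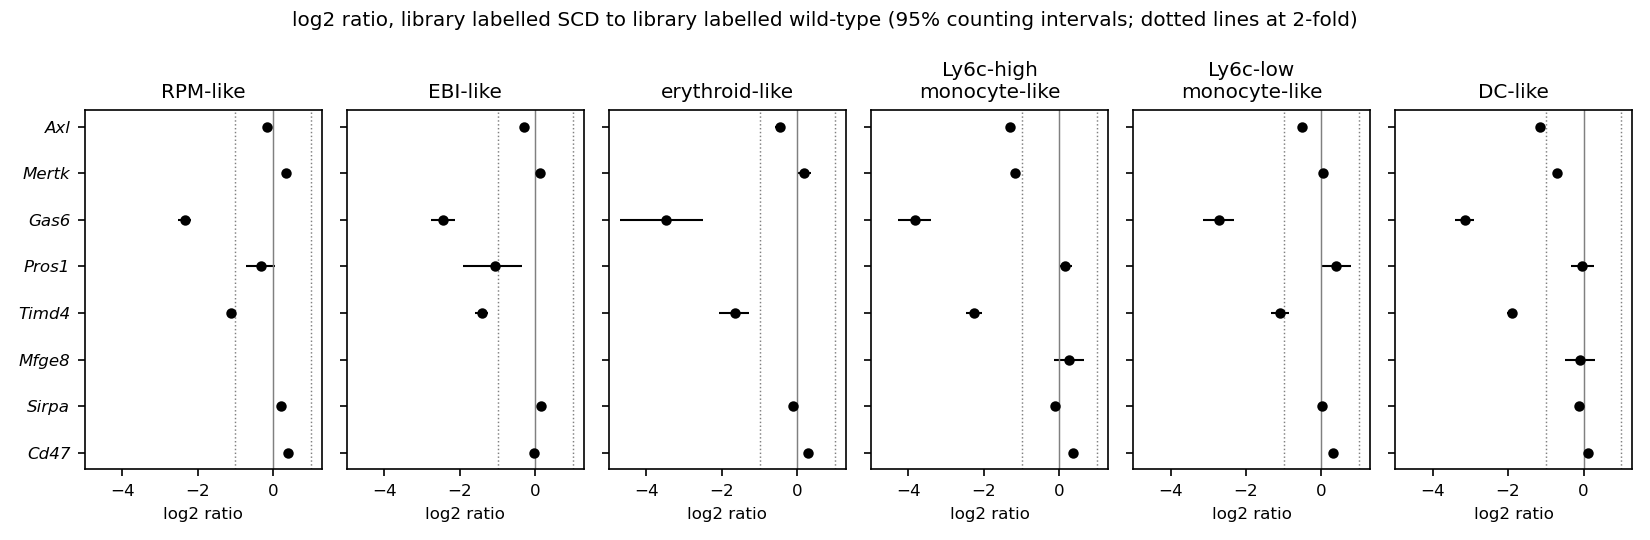
log2 ratio of CPM in the SCD-labelled library to CPM in the WT-labelled library for each of the 8 genes in 6 cell classes, with 95% counting intervals, for genes with at least 100 UMIs in both libraries together. Gas6 lies at -2.34 or lower and Timd4 at -1.11 or lower in every class, left of the dotted 2-fold line, and no gene lies past the line on the right.

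Gas6 and Timd4 were lower in the SCD-labelled library in the other classes too. Gas6 had a log2 ratio of -2.43 in EBI-like, -3.49 in erythroid-like, -3.82 in Ly6c-high monocyte-like, -2.72 in Ly6c-low monocyte-like and -3.15 in DC-like cells, and Timd4 had -1.42, -1.66, -2.27, -1.11 and -1.90. The B lymphocytes, which were taken to make neither, had 31.0 and 3.40 CPM of Gas6 and 37.3 and 16.1 CPM of Timd4. Ly6c-high monocyte-like SCD-labelled cells had 4.21 CPM of Gas6 and 20.1 CPM of Timd4, each 1.24 times the B lymphocyte level. The ratios of this class thus rest on levels near that of free RNA. Of 14 clusters with at least 100 cells of each library, Timd4 reached 100 UMIs in 13, with log2 ratios from -2.82 to -1.11, and Gas6 in 9, with ratios from -3.77 to -2.39. Among the 14 are the B lymphocyte reference itself (cluster 0, Timd4 at -1.21) and the B lymphocyte-like cluster 24. The latter, with 87.4% of cells called doublets, gave the Timd4 ratio of -2.82. All these clusters come from the same 2 libraries and share the free RNA in them, so they are not replicates.

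Set against the level in RPM-like cells of the same library, Axl, Mertk, Gas6 and Timd4 lay close to the red pulp markers in the other classes. In DC-like WT-labelled cells the 12 red pulp markers were at 30.5 to 52.7% of their RPM-like level, and the 4 genes were at 38.6% (Axl), 31.2% (Mertk), 40.6% (Gas6) and 36.3% (Timd4). In DC-like SCD-labelled cells the markers were at 15.6 to 34.9%, and the genes at 19.2%, 15.1%, 23.2% and 21.2%. In Ly6c-high monocyte-like cells the markers were at a median of 28.9% in the WT-labelled library and 12.1% in the SCD-labelled library, with Timd4 at 26.3% and 11.9%. Their presence in erythroid, monocyte and dendritic cells therefore cannot be told apart from macrophage RNA that reached these droplets. More genes were past 2-fold lower in some of these classes. In DC-like cells these were Axl, with 730 and 325 CPM and a log2 ratio of -1.17, besides Gas6 and Timd4, so 3 of 8, where 4.44% of all genes tested were. Within the DC-like cluster 14 (1158 and 615 cells) Axl was short of 2-fold, at -0.35 (-0.42 to -0.28). It was past 2-fold lower in the DC-like clusters 7 (-1.15), 17 (-1.33), 20 (-1.33) and 22 (-1.68). In the unnamed cluster 18, which held dendritic cell markers, Axl was short of 2-fold at -0.46 (-0.70 to -0.22) and Timd4 was at -1.30. In Ly6c-high monocyte-like cells they were Axl (-1.30), Mertk (-1.19), Gas6 and Timd4, so 4 of 8 against 5.47%. Within clusters 5 and 10 of this class, Axl was lower but short of 2-fold, at -0.32 (-0.42 to -0.21) and -0.80 (-0.96 to -0.65). Mertk was also short of 2-fold in both (0.34 and -0.66), while Timd4 was past it in both (-1.34 and -1.18). Both kinds of monocyte-like cells pooled had 2 of 8 (Gas6 and Timd4) against 4.29%, Ly6c-low monocyte-like cells alone 2 of 7 (the same genes) against 1.8%, and EBI-like cells 3 of 7 (Pros1 besides) against 6.11%. In Ly6c-high monocyte-like cells the 12 red pulp markers summed to 8685 and 3720 CPM, and in DC-like cells to 11359 and 5639 CPM. Over 30% of cells were called doublets in cluster 5 among monocyte-like and in clusters 7 and 17 among DC-like cells. The same held for cluster 6 among EBI-like cells (1320 and 84 cells, 39.4% called doublets). Without these clusters, the count in DC-like cells was 2.

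**Figure D4:**
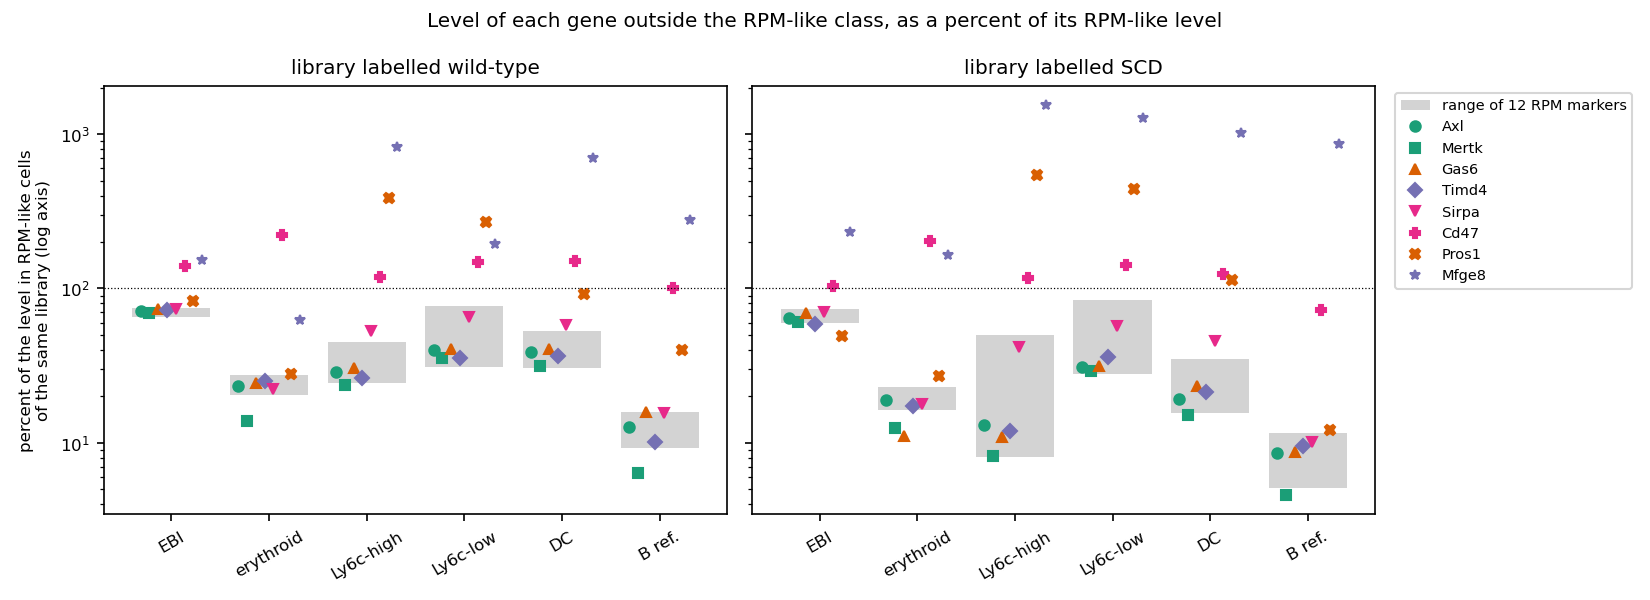
Level of each gene in 5 other classes and in the B lymphocyte reference, as a percent of its level in RPM-like cells of the same library (log axis, dotted line at 100%), with the lowest to highest value of the 12 red pulp macrophage markers as grey boxes. Axl and Timd4 lie in or near the boxes, as does Gas6 but for SCD-labelled erythroid-like cells (11.0%, from 8 UMIs), Mertk lies low in them or below, and Cd47 and, in monocyte-like cells, Pros1 lie above them.

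Pros1, which encodes protein S, a ligand of Mertk, was highest in monocyte-like cells. Ly6c-high monocyte-like cells had 47.9 CPM (44.1 to 52.1) in the WT-labelled library and 53.6 CPM (49.4 to 58.1) in the SCD-labelled library, and Ly6c-low monocyte-like cells 33.2 CPM (25.8 to 42.1) and 43.3 CPM (38.1 to 49.0). RPM-like cells had 12.4 CPM (10.8 to 14.2) and 9.87 CPM (7.78 to 12.4), and DC-like cells 11.5 and 11.2 CPM. The level in Ly6c-high monocyte-like cells was thus 387% and 543% of that in RPM-like cells, above every red pulp marker in both libraries. B lymphocytes had 4.93 and 1.19 CPM, from 7 UMIs each. None of the differences between the libraries in monocyte-like, RPM-like or DC-like cells had an interval apart from 0, with log2 ratios of 0.16 (-0.01 to 0.33) in Ly6c-high and -0.33 (-0.73 to 0.06) in RPM-like cells. In EBI-like cells it was -1.08 (-1.90 to -0.36), from 312 and 16 UMIs. Its direction there turned under 3 of 12 alternatives, and in RPM-like cells, where the ratio ran from -0.54 to 0.22, under 1.

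Mfge8, the bridge to integrins, was scarce in every class. RPM-like cells had 17 UMIs in the WT-labelled library and 5 in the SCD-labelled library, or 1.01 CPM (0.59 to 1.61) and 0.65 CPM (0.21 to 1.52). They were not above the level of the B lymphocytes (2.82 and 5.61 CPM). In the SCD-labelled library the intervals of RPM-like cells and B lymphocytes lie apart, so the B lymphocyte level of Mfge8 cannot be taken as free RNA alone. Ly6c-high monocyte-like cells had 8.37 CPM (6.80 to 10.2) and 9.95 CPM (8.19 to 12.0), and DC-like cells 7.09 CPM (5.89 to 8.45) and 6.64 CPM (5.41 to 8.08). Ly6c-low monocyte-like cells had 1.95 CPM (0.53 to 5.00, 4 UMIs) and 8.31 CPM (6.12 to 11.0, 48 UMIs). In the WT-labelled library the intervals of Ly6c-high monocyte-like and DC-like cells overlap. In the SCD-labelled library that of Ly6c-low monocyte-like cells overlaps both, and that of DC-like cells also overlaps the interval of B lymphocytes (3.86 to 7.88). Of the integrins that bind Mfge8, Itgav was at 129.7 and 144 CPM and Itgb5 at 240.4 and 249.5 CPM in RPM-like cells, while Itgb3 had 15 and 21 UMIs.

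Sirpa, the inhibitory receptor for Cd47, was highest in RPM-like cells and differed little between the libraries. It was at 1834 CPM (1814 to 1855) and 2111 CPM (2079 to 2144) in RPM-like cells, at 1205 and 1211 CPM in Ly6c-low monocyte-like cells, at 967 and 888 CPM in Ly6c-high monocyte-like cells and at 1061 and 969 CPM in DC-like cells. The log2 ratios lay between -0.13 and 0.20 over the 6 classes, and those of EBI-like, erythroid-like and Ly6c-low monocyte-like cells changed sign under some alternatives. Erythroid-like cells had 408 and 379 CPM and B lymphocytes 286 and 214 CPM. Relative to RPM-like cells, Sirpa in DC-like cells was at 57.8% and 45.9%, above all 12 red pulp markers in both libraries, and in erythroid-like cells at 22.2% and 17.9%, within their range. Reads of Sirpa and of its paralogs Sirpb1a, Sirpb1b and Sirpb1c may not be fully separable, so these levels carry that uncertainty.

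Cd47 was the one gene of the 8 whose highest level was in erythroid-like cells. It was at 1312 CPM (1295 to 1329) there in the WT-labelled library and at 1588 CPM (1531 to 1646) in the SCD-labelled library, or 221% and 204% of its level in RPM-like cells. Of erythroid-like cells thinned to 1000 UMIs, 70.1% (68.3 to 71.8) and 78.4% (73.3 to 82.9) had a UMI of Cd47, and without thinning 95.7% and 97.4%. B lymphocytes, which express Cd47 themselves, had it in 44.2% and 43.9% of thinned cells. In the SCD-labelled library Ly6c-low monocyte-like cells followed, at 1095 CPM (1068 to 1122), then DC-like (964 CPM) and Ly6c-high monocyte-like cells (907 CPM). In the WT-labelled library DC-like cells (891 CPM) and Ly6c-low monocyte-like cells (882 CPM) followed, with intervals that overlap. RPM-like cells had 594 CPM (582 to 605) and 778 CPM (758 to 797), which in the WT-labelled library could not be told from the 594 CPM (555 to 636) of B lymphocytes. Cd47 was higher in the SCD-labelled library in RPM-like cells (log2 ratio 0.39, 0.34 to 0.44), erythroid-like cells (0.28, 0.22 to 0.33) and both kinds of monocyte-like cells (0.37 and 0.31), and it was level in EBI-like cells (-0.04, -0.10 to 0.02). None of these was past 2-fold, and the erythroid-like ratio was negative under 1 of 12 alternatives, at -0.54 at the lowest. In erythroid-like cells 2 of the 6 genes with at least 100 UMIs were past 2-fold lower, Gas6 and Timd4, where 4.27% of all genes tested were. Gas6 was there at 1.54 and 1.25 times its B lymphocyte level, the latter from 8 UMIs, and Timd4 at 2.48 and 1.81 times. These levels were thus near that of free RNA.

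Of 46 other genes of recognition and engulfment, 35 had at least 100 UMIs in RPM-like cells. Of these, 7 were past 2-fold higher and 1 was past 2-fold lower in the SCD-labelled library, where 9.03% of all genes tested were past 2-fold higher and 4.19% lower, and their median log2 ratio was 0.32 against 0.20 for all genes. Among phosphatidylserine receptors, Cd300lf was at 24.7 CPM in the WT-labelled library and 104 CPM in the SCD-labelled library, a log2 ratio of 2.07 (1.90 to 2.24). Cd300lb (6.05 and 20.5 CPM, 1.76) and Havcr2, which encodes Tim-3 (8.66 and 28.1 CPM, 1.70), were also higher. The other 3 with enough UMIs, Cd300a, Stab1 and Stab2, were within 2-fold. In B lymphocytes Cd300lf was at 53.5 and 40.1 CPM, above the RPM-like level in the WT-labelled library only. Markers of other myeloid cells were also found in RPM-like droplets. Dendritic cell markers summed to 17.1 CPM (WT-labelled) and 50.0 CPM (SCD-labelled), and mature dendritic cell markers to 192 and 439 CPM. Sums for Ly6c-low monocytes were 1010 and 1457 CPM, and for Ly6c-high monocytes 68.4 and 70.7 CPM. Whether RNA of such cells gave the Cd300lf, Cd300lb and Havcr2 differences was not tested.

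The Sirpa paralogs were past 2-fold higher, Sirpb1a at 1.07 and 13.5 CPM (3.66), Sirpb1b at 3.91 and 21.04 CPM (2.43) and Sirpb1c at 3.73 and 12.6 CPM (1.75). Their reads may not be fully separable from each other or from those of Sirpa, which was not tested. Whether RNA of dendritic cells or monocytes gave the differences of these paralogs was not tested either. Ptpn6, the phosphatase Shp-1 that acts below Sirpa, was at 175 and 300.0 CPM (0.78, 0.70 to 0.86), and Ptpn11, the related phosphatase Shp-2, at 49.4 and 52.5 CPM. Cd24a, a do-not-eat-me signal, was the 1 gene past 2-fold lower, at 151 and 34.9 CPM (-2.11), and was at 849 and 689 CPM in B lymphocytes. Siglecg, which binds it, was at 3.97 and 10.5 CPM, below the 401 and 496 CPM of B lymphocytes. In RPM-like cells the B lymphocyte markers summed to 109 and 227 CPM and the erythroid markers to 595 and 158 CPM. Whether RNA of such cells in these droplets gave the Siglecg and Cd24a differences was not tested. All 9 engulfment adaptors with enough UMIs, Elmo1, Dock2 and Rac1 among them, and all 4 genes of phosphatidylserine exposure with enough UMIs were within 2-fold.

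**Figure D5:**
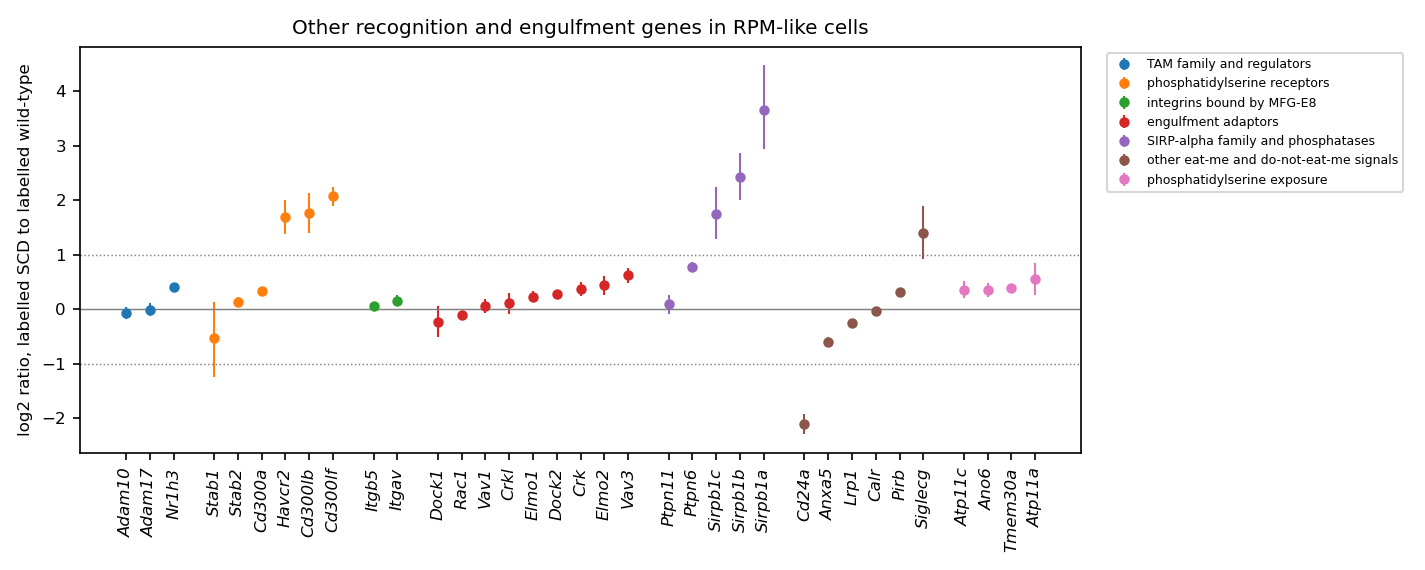
log2 ratio (SCD-labelled to WT-labelled library) in RPM-like cells of the 35 other recognition and engulfment genes with at least 100 UMIs, grouped by role, with 95% counting intervals and dotted lines at 2-fold. The 7 genes above the upper line are 3 phosphatidylserine receptors, the 3 Sirpb1 paralogs and Siglecg, and Cd24a is the 1 gene below the lower line.

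Likeness of pattern was measured by Pearson's r of log2(CPM + 10) over 39 clusters split by library, among 9932 genes with at least 1000 UMIs. The points share 2 libraries and the free RNA in them, so r is a description. Axl was most like Mrc1 (0.997), C1qa (0.995) and Kcnj10 (0.993), and Mertk most like Rims3 (0.991), Galnt3 (0.983) and Tmem26 (0.982). Gas6 was most like Wwp1 (0.983), Cd5l (0.983) and Pdgfc (0.982), and Timd4 most like Il18bp (0.992), Kitl (0.989) and Prxl2b (0.988). Gas6 thus had beside it the marker Cd5l, which was also lower in RPM-like SCD-labelled cells. Pros1 was most like Msr1 (0.955), Plod3 (0.939) and Cx3cr1 (0.936), Mfge8 most like Ms4a4c (0.889), Cask (0.871) and S100a4 (0.861), Sirpa most like Usp12 (0.958), Slc8a1 (0.954) and Adgre1 (0.948), and Cd47 most like Pqlc1 (0.881), Coq10b (0.832) and Med13l (0.807). Among the 8 genes themselves, Axl and Mertk had r of 0.96, Gas6 and Timd4 0.95 and Axl and Timd4 0.95, while Cd47 had r between -0.33 and -0.04 with the other 7.

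In GENCODE M21 (GRCm38) the genes lie on 5 chromosomes. Mertk (chr2:128698956-128802894) and Sirpa (chr2:129592835-129632228) lie on the plus strand of chromosome 2, Axl (chr7:25757273-25788705) and Mfge8 (chr7:79133768-79149060) on the minus strand of chromosome 7, Gas6 (chr8:13465374-13494490) on the minus strand of chromosome 8, Timd4 (chr11:46810800-46844332) on the plus strand of chromosome 11, and Cd47 (chr16:49800533-49915010) and Pros1 (chr16:62854307-62929346) on the plus strand of chromosome 16. All 8 are protein-coding, and the counts come from the 3′ ends of their transcripts, so levels of different genes are not corrected for anything but the total.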

How the data were processed

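F4/80-enriched spleen cells of 2 mice were sequenced as 2 droplet libraries (3′ chemistry). The authors deposited, after alignment and cell calling, whole-number UMI counts for each gene in each barcode, without normalization. The submitters' processing notes name Cell Ranger 4.0.0 and build GRCm38.p6, while the matrix headers name Cell Ranger 3.1.0.

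Of 39586 barcodes, 31697 were kept, by limits of 500 to 5000 detected genes, 15% of UMIs from mitochondrial genes and 30% from ribosomal-protein genes. They were normalized with scran 1.30.0 (R 4.3.3) and clustered with scanpy 1.11.5 (2000 variable genes without the 8 genes, hemoglobin and sex-linked genes, 30 components, 15 neighbours, Leiden resolution 1), which gave 25 clusters. Names came from marker lists. Red pulp and erythroid markers were compared with the B lymphocyte cluster, and markers of the other classes with the rest of the cells. Erythroid-like clusters had to pass both comparisons. The naming limits, the rule for ties and the counting of marginal zone markers as macrophage markers were set after a first clustering was seen. Of the 25 clusters 3 stayed unnamed, since genes of another class led them. Doublets were scored with Scrublet and left in. Its threshold marked 0 cells of the library labelled wild-type, so the highest-scoring 10% stood for doublets there.

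UMIs were summed per class and library and given as CPM with exact Poisson intervals. Ratios have intervals from the exact binomial split of UMIs, and shares exact binomial (Clopper-Pearson) intervals. Past 2-fold was counted among genes with at least 100 UMIs. The depth of a class ranged from 1420242 to 30500699 UMIs. The ratio calculation was tested on simulated counts. No paired or replicate analysis applies with 1 mouse per condition.

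The 8 genes and all lists were chosen with earlier results of these data known. Named besides the 8 were pathway genes past 2-fold in RPM-like cells with at least 100 UMIs, Tyro3, Itgav, Itgb3, Itgb5, Ptpn6 and Ptpn11, the 3 genes most like each, label checks (Xist was not analysed here) and markers. Cd300a, Stab1, Stab2, Elmo1, Dock2, Rac1, Hbb-bt and Hba-a1 were named after values were seen where the rule did not hold them. Promoters are from RefSeq, matched by symbol for 7 of the 8 genes. Protein sequences were not used here. Alternatives covered cell filters, doublets, normalization, cell weights, clustering, the total and free RNA, and leaving out clusters with over 30% doublet calls was added after seeing the data.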

Additional observations from a re-analysis of the deposited data

Results flagged for a closer look

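The Mertk log2 ratio (SCD-labelled to WT-labelled library) was 0.33 in RPM-like, 0.12 in EBI-like and 0.18 in erythroid-like cells, each with a counting interval above 0, and -1.19 in Ly6c-high monocyte-like cells. The sign held under all 12 alternatives in RPM-like and Ly6c-high monocyte-like cells, but under 9 in EBI-like cells, where the ratio reached -0.34, and under 7 in erythroid-like cells, where it reached -1.42, so no direction can be given for those 2 classes. In RPM-like cells that sign is of the pooled class. The SCD-labelled cells, almost all in cluster 21, had less Mertk than WT-labelled cluster 2 and more than WT-labelled cluster 3. The difference between classes was not tested, since there is 1 mouse per condition. In Ly6c-high monocyte-like cells Mertk was at 23.6% of its RPM-like level in the WT-labelled library and at 8.23% in the SCD-labelled one, where the red pulp markers were at medians of 28.9% and 12.1%, and the cells of the 2 libraries lay mostly in different clusters. Within the 2 Ly6c-high clusters that held over 100 cells of each library the signs differed, with a Mertk ratio of -0.66 (-0.95 to -0.36) in cluster 10 (321 and 1413 cells) and of 0.34 (0.20 to 0.49) in cluster 5 (446 and 289 cells, 43.4% of them called doublets), so the lower level of the class was not seen in both.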

How the results depend on the processing

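The log2 ratios were recomputed under 12 alternatives. Of the recomputed ratios 293 lay within the counting interval of the main ratio, 219 lay outside it and 3 more were reversed. The intervals therefore do not cover the effect of processing. Of 16 ratios past 2-fold, 13 stayed past it in the same direction in all 12, among them those of Gas6 and Timd4 in each of the 6 classes. In erythroid-like, monocyte-like and DC-like cells the levels of both cannot be told apart from macrophage RNA that reached these droplets. The Axl ratio in Ly6c-high monocyte-like cells was another of the 13, although within clusters 5 and 10 it was short of 2-fold (-0.32 and -0.80). In RPM-like cells Gas6 ranged from -2.53 to -2.23 and Timd4 from -1.34 to -1.09. Axl fell short of 2-fold in DC-like cells under 2 of 12 (-0.92 at the least), Mertk in Ly6c-high monocyte-like cells under 1 (-0.80), and the count of 2 genes past 2-fold in RPM-like cells held in all 12. Among DC-like clusters, Axl was short of 2-fold in cluster 14 only (-0.35). The Pros1 ratio in EBI-like cells, resting on 16 UMIs in the library labelled SCD, turned to 0.26 with at least 200 genes per cell and no upper limit, to 0.71 with each library clustered alone and to 0.69 with no gene left out of the clustering, so its direction is not given by these data. The count in erythroid-like cells moved from 2 to 4 without doublets and at Leiden resolution 0.5, with Axl and Mertk (-1.19 and -1.42, and -1.10 and -1.09) beside Gas6 and Timd4, and that in monocyte-like cells moved from 2 to 4 at resolution 2 and with each library clustered alone. The cause was not tested. The count in DC-like cells, 3, ranged from 2 (among others without the clusters of over 30% doublet calls) to 4 (among others with called doublets removed). No paired analysis was possible because there is 1 library per condition and the labels carry no replicate numbers. No replicate could be left out for the same reason.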
